A study of Mus musculus with 11 samples.

Results

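The subject is a group of 9 genes of the mouse MS4A family: Ms4a6d, Ms4a6c, Ms4a6b, Ms4a4a, Ms4a4b, Ms4a4c, Ms4a4d, Ms4a7 and Ms4a8a, out of 22180 genes with a usable probeset (a set of probes for 1 transcript). Each of the 9 had 1 probeset that names that gene alone. The genes were picked by name with earlier results of the comparison below in view, so their differences between groups are given as a description and carry no test. Expression was measured in dendritic cells of C57BL/6 mouse spleen, sorted as CD11c+ MHC class II+ cells to a stated purity above 95%. The naive group had 6 arrays of cells from naive mice. The exposed group had 5 arrays from mice that had received Eµ-Myc lymphoma cells, B cell tumours driven by a Myc transgene, and whose spleens held on average 10 to 36% tumour cells among lymphocytes. The labels give no age or time after transfer, and a separate animal behind every array is not stated there, so a p-value covers only array-to-array spread, which may be technical. Arrays carry the numbers of their titles, 1 to 6 in the naive group and 1, 2, 3, 4 and 6 in the exposed group. All levels are log2 expression, so a difference of 1 is a doubling.

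MS4A genes encode small proteins that cross the membrane several times and that sit beside other receptors and adjust their signalling. The family is best known for Ms4a1, which encodes the B cell antigen CD20, and for Ms4a2, the beta chain of the high-affinity IgE receptor. Other members belong to myeloid cells, among them Ms4a7 and Ms4a4a, which are used as macrophage genes, while Ms4a4b is known from T cells. The genes arose by repeated duplication and lie side by side.

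In the RefSeq annotation of assembly GRCm38.p6, 21 protein-coding MS4A genes lie on chromosome 19, with 1 other protein-coding gene, Gm8369, among them. The stretch from Ms4a7 to Ms4a6d holds 9 protein-coding genes, of which 8 belong to the group described here, in the order Ms4a7, Ms4a4a, Ms4a4c, Ms4a4b, Ms4a6c, Gm8369, Ms4a6b, Ms4a4d and Ms4a6d. Ms4a8a lies apart, with 7 genes between it and Ms4a7. The deposited values name no genome build, so the order is taken from that annotation alone.

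Some of these genes share stretches of upstream sequence. RefSeq promoter windows of GRCm38.p6, 250 bases before to 50 bases after the start site, were matched by symbol for 8 of the 9 genes. Ms4a6d had no entry. Among the 28 pairs of windows, the longest identical run was 48 bases, between Ms4a6c and Ms4a6b, and the next was 20 bases, between Ms4a4c and Ms4a4b. The other 26 pairs shared runs of 7 to 13 bases. The 250 bases before the start site of both pairs are printed 5′ to 3′, all on the + strand, because the levels of these genes are compared below. Capitals mark the run that the pair shares. The windows are chr19:11469118-11469367 for Ms4a6c, chr19:11518309-11518558 for Ms4a6b, chr19:11407411-11407660 for Ms4a4c and chr19:11443308-11443557 for Ms4a4b.
Ms4a6c: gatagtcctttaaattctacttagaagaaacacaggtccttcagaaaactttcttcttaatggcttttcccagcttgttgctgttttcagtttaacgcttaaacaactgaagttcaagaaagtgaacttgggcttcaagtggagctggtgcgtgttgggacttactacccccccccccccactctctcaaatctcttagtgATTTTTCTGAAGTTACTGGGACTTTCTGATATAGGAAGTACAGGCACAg
Ms4a6b: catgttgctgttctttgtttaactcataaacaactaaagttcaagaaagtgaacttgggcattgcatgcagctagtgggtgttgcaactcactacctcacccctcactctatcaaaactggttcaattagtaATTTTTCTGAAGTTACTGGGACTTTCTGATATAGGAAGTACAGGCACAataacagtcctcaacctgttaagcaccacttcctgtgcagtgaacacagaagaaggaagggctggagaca
Ms4a4c: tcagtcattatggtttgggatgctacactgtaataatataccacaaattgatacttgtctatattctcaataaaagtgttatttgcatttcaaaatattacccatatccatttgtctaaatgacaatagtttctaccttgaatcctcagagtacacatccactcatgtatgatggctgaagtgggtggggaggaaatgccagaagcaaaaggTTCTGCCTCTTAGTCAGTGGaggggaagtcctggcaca
Ms4a4b: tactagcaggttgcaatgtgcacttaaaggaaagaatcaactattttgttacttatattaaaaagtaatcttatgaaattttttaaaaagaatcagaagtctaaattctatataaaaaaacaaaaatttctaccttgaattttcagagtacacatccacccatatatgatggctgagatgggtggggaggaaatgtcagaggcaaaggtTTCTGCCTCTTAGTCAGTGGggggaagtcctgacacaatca

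The shared run ends 2 bases before the start site in Ms4a6c and 71 bases before it in Ms4a6b, so the annotated starts of this pair are offset against the common sequence. In Ms4a4c and Ms4a4b it ends 19 and 22 bases before the start. These runs lie before the annotated start sites, so they do not show how alike the transcripts are. Where transcripts are alike, array probes may in part detect more than one of them. The probe sequences were not used here, so how far neighbouring members share signal was not tested.

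A search of the windows for 5 motifs, on both strands, gave few matches. The C/EBP letters TTGCNNAA occurred in the window of Ms4a4d and in no other member's, against 10.8% of all 32851 windows. The NF-kB motif, GGGA and TTTCC with 1 base of any kind between them, occurred in the window of Ms4a4a, against 0.411% of all windows. The IRF motif, GAAA repeated after 2 bases of any kind (3.44% of all windows), the ETS letters GAGGAAGT (3.20%) and the STAT letters TTCNNNGAA (8.30%) occurred in none of the 9 windows of these genes, Ms4a7 having 2. A match is a description of letters and not evidence of binding. The window of Ms4a4a, at chr19:11375238-11375487 on the + strand, is shown because this gene had the largest difference among the genes with a window, with the NF-kB match in capitals.
Ms4a4a: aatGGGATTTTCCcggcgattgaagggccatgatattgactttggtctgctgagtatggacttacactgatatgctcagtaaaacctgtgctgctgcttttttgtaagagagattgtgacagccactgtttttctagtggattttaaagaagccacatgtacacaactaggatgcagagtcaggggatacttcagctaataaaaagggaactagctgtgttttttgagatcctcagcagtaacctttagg

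The exposed and naive groups were compared to find which of these transcripts differ in dendritic cells from lymphoma-bearing spleens. The paralogues did not move as a block. Ms4a6d rose 2.87-fold, Ms4a4a was 1.93-fold higher with more scatter, Ms4a7 was 1.33-fold higher, and Ms4a6b, Ms4a6c and Ms4a4c, all well measured, differed by at most 1.09-fold. Over all 22180 genes, limma called 316 genes (1.42%) at an adjusted p under 0.05, with 195 higher in exposed cells (0.879%) and 121 lower (0.546%). Of the 9 MS4A genes it called 1, Ms4a6d, as higher and 0 as lower. All 9 differences were above 0, with a median of 0.33 against 0.01 over all genes. Since the genes were chosen in view of this contrast, these counts are not read as evidence. In sorted bulk cells, more cells of a kind and more RNA per cell cannot be told apart.

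Ms4a6d (probeset 17362973) encodes a macrophage membrane protein. Its level in naive arrays 1 to 6 was 6.98, 6.63, 6.17, 6.66, 6.95 and 6.64, and in exposed arrays 1, 2, 3, 4 and 6 it was 8.59, 8.64, 8.04, 8.04 and 7.67. Every exposed array lay above every naive array, with exposed arrays 1 and 2 the highest and naive array 3 the lowest. The group levels were 6.68 ± 0.29 (SD, n = 6) and 8.20 ± 0.41 (SD, n = 5), a difference of 1.52 ± 0.18 (SE) with 95% limits of 1.14 and 1.90. Only 5 of the 22180 genes had a larger positive difference. Groups without overlap were seen for 2.29% of all genes in either direction, for 1.42% with exposed cells higher, and among the 9 genes for Ms4a6d alone.

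Its closest relatives by name differed little between the groups, within narrow limits. Ms4a6c (probeset 17357671) measured 10.25, 10.23, 10.28, 10.30, 10.36 and 10.46 on the naive arrays and 10.34, 10.60, 10.23, 10.38 and 10.55 on the exposed arrays. The groups overlapped, with 2 exposed arrays above the naive range. The difference was 0.11 ± 0.07 (SE), with 95% limits of -0.04 and 0.25. Ms4a6b (probeset 17357688) measured 9.65, 9.57, 9.69, 9.71, 9.66 and 9.67 on the naive arrays and 9.58, 9.87, 9.63, 9.61 and 9.72 on the exposed arrays. Its difference of 0.02 ± 0.06 (SE) has 95% limits of -0.10 and 0.15. For both genes the limits leave out a difference near that of Ms4a6d.

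Ms4a4a (probeset 17357640) encodes a macrophage protein that associates with the beta-glucan receptor Dectin-1. It measured 6.36, 6.58, 6.16, 6.04, 6.31 and 5.77 on the naive arrays and 8.02, 7.67, 6.81, 6.85 and 6.42 on the exposed arrays. Exposed arrays 1 and 2 stood above the other exposed arrays, and exposed array 6 lay inside the naive range. The group levels were 6.21 ± 0.28 (SD, n = 6) and 7.16 ± 0.66 (SD, n = 5), and the difference was 0.95 ± 0.25 (SE). Limma did not call it in the fit of all arrays. It did with exposed array 6 left out, where the difference was 1.13, and with the array number set described below as a block.

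The other Ms4a4 genes fell into a measured one and a dim pair. Ms4a4c (probeset 17357648) measured 8.41, 8.23, 8.30, 8.34, 8.36 and 8.40 on the naive arrays and 8.58, 8.80, 8.17, 8.35 and 8.40 on the exposed arrays. Its exposed arrays spread to both sides of the naive range, 2 above and 1 below, and the difference was 0.12 ± 0.09 (SE). As a mark for dim genes, the 95th percentile of the mean levels of 1105 genes for olfactory receptors, which serve the sense of smell, was 5.60, and both Ms4a4b and Ms4a4d lay below it on every array.

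Ms4a4b (probeset 17357659) encodes a T cell protein that binds the TNF receptor family member GITR. It measured 4.66, 4.30, 4.50, 4.32, 4.27 and 4.21 on the naive arrays and 4.67, 5.03, 4.51, 4.51 and 4.85 on the exposed arrays. On exposed arrays 2 and 6 Ms4a4b lay above all naive arrays. Exposed array 1, at 4.6651, was nearly level with the highest naive array, at 4.6644. The difference between the groups was 0.33 ± 0.11 (SE). Markers of T cells and NK cells were low too. Of 8 measured T cell genes 2 had a mean above the dim mark, 4 had positive differences and 0 passed (4 at an unadjusted p under 0.05), and their mean level ranged from 5.88 to 6.06 on naive and from 5.85 to 6.09 on exposed arrays. Cd3g, below the dim mark, had the largest difference of this list, 0.34 (limma adjusted p = 0.169). Of 6 NK cell genes 2 had a mean above the dim mark and 4 had positive differences (median 0.25; 4 at an unadjusted p under 0.05). Only Ncr1 passed, which encodes an activating receptor of NK cells, at 0.46 ± 0.09 (SE; limma adjusted p = 0.0289). Of its 5 exposed values 4 were past the naive range. That list's mean level ranged from 4.85 to 5.07 on naive and from 4.98 to 5.21 on exposed arrays. It was highest on exposed arrays 2 and 6, at 5.21 on each, where Ms4a4b was highest too. Leaving out single arrays kept the call of Ncr1 in 3 of 11 fits. The part of these cells in the Ms4a4b values was not tested. Ms4a4d (probeset 17357700) ranged from 4.57 to 4.94 on naive and from 4.60 to 4.92 on exposed arrays, a difference of 0.03 ± 0.08 (SE).

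**Figure D1:**
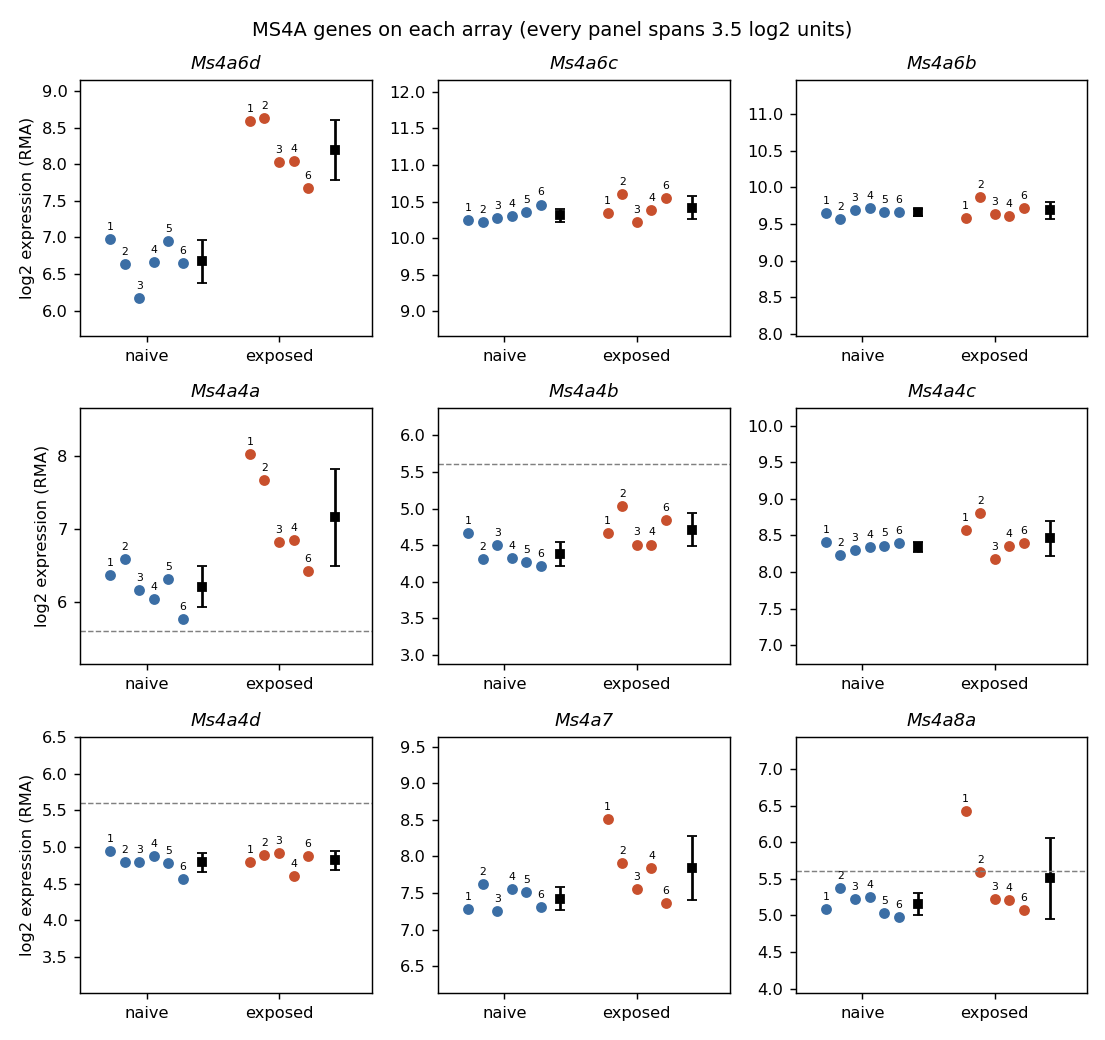
Log2 expression (vertical axis) of the 9 genes on each array, naive in blue and exposed in red, with the array number above each point; black squares and bars are the group mean and SD, and the dashed line is the dim mark of 5.60. Every panel spans the same number of log2 units. The groups are separate for Ms4a6d alone, and exposed arrays 1 and 2 lead for Ms4a6d, Ms4a4a, Ms4a7 and Ms4a8a.

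Ms4a7 and Ms4a8a had their high values on few arrays. Ms4a7 (probeset 17362953), a gene of tissue macrophages and microglia, measured 7.28, 7.62, 7.26, 7.55, 7.51 and 7.31 on the naive arrays and 8.51, 7.91, 7.55, 7.84 and 7.36 on the exposed arrays. On exposed arrays 3 and 6 it lay within the naive range. The difference of 0.41 ± 0.16 (SE) was 0.24 without exposed array 1. Ms4a8a (probeset 17362874), known from alternatively activated macrophages, measured 5.09, 5.38, 5.23, 5.25, 5.03 and 4.98 on the naive arrays and 6.43, 5.59, 5.23, 5.20 and 5.08 on the exposed arrays. Only exposed array 1 was above the dim mark, and the difference of 0.35 ± 0.20 (SE) was 0.12 without that array.

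Markers of red pulp macrophages, the iron-recycling phagocytes of the spleen, were high on the same arrays. The mean level of 13 such markers was 10.13 on exposed array 1 and 9.18 on exposed array 2, against 8.42, 8.30 and 8.21 on exposed arrays 3, 4 and 6 and a range of 7.62 to 8.72 on the naive arrays. Of the 13, 11 had positive differences with a median of 0.71 against 0.01 over all genes, and 0 passed in limma (8 at an unadjusted p under 0.05). With a block for the array number set described below, 1 passed, Cd5l, at a difference of 1.80 (limma adjusted p = 0.0400). Cd5l, a secreted protein of these macrophages, measured 10.03 and 9.22 on exposed arrays 1 and 2, 7.15 to 7.55 on the other exposed arrays and 5.70 to 7.38 on the naive arrays. Spic, their lineage transcription factor, measured 10.80 and 10.09 on exposed arrays 1 and 2 and 9.75, 9.27 and 9.35 on exposed arrays 3, 4 and 6, against 8.69 to 9.60 on the naive arrays, so exposed array 3 was above the naive range too. The markers with negative differences were Vsig4 and Adgre1. Vsig4 was the marker at background, with a mean of 3.70 in naive and 3.55 in exposed cells. Adgre1 was well measured and differed by -0.18 (limma adjusted p = 0.730). It was 10.91 on exposed array 1 and 9.90 to 10.41 on the other exposed arrays, against 10.14 to 10.73 on the naive arrays.

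The 9 monocyte markers averaged 7.97 to 8.53 on naive and 8.03 to 8.77 on exposed arrays, again highest on exposed arrays 1 and 2 within their group. One of them passed, the lysozyme gene Lyz2, with 0.50 ± 0.11 (SE; limma adjusted p = 0.0355), and 7 of the 9 were positive. Leaving out single arrays kept that call in 1 of 11 fits. Lyz2 measured 12.25, 11.73, 12.37, 12.37 and 12.13 on the exposed arrays and at most 11.81 on the naive arrays, so it was above the naive range on all exposed arrays but array 2. Csf1r, the receptor for the macrophage growth factor M-CSF, did not pass (difference 0.41; limma adjusted p = 0.249), but its 5 exposed values, from 10.59 to 11.54, all exceeded the highest naive value of 10.56. It is named here after its values were seen. Lists of other cell types were highest on exposed arrays 1 and 2 too. Plasmacytoid dendritic cell markers averaged 8.32 and 8.36 there, against 7.83 to 8.09 on the other exposed arrays and 7.75 to 8.22 on the naive arrays. Neutrophil markers, mostly dim, averaged 4.86 and 4.96 there, against 4.73 to 4.74 on the other exposed arrays and 4.70 to 4.84 on the naive arrays. The part of macrophages, monocytes and these other cells in the MS4A differences was not tested.

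**Figure D2:**
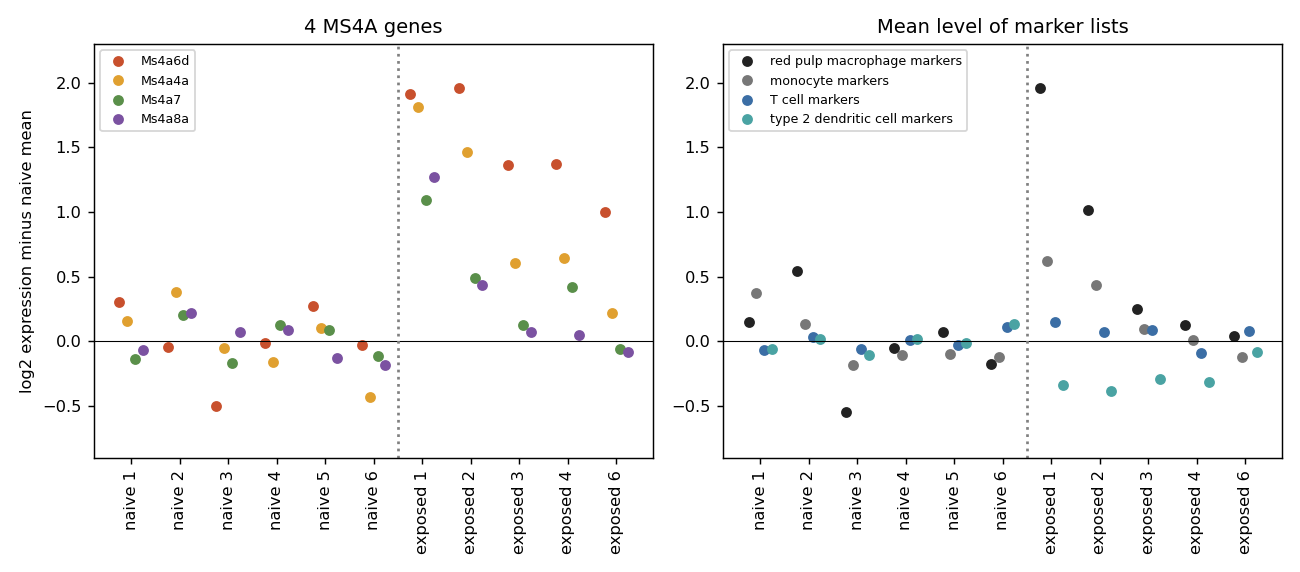
Log2 expression minus the naive mean (vertical axis) on each of the 11 arrays (horizontal axis) for 4 MS4A genes (left) and for the mean level of 4 marker lists (right). Red pulp macrophage markers are highest on exposed arrays 1 and 2, at levels of 10.13 and 9.18, and Ms4a6d is high on all 5 exposed arrays.

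The remaining marker lists describe the sort. Itgax, which encodes CD11c, measured 12.11 in naive and 11.98 in exposed cells and the class II gene H2-Ab1 13.66 and 13.61. Of 6 dendritic cell genes 0 passed (1 at an unadjusted p under 0.05; median -0.07) and 0 had a positive difference. Itgax differed most, by -0.14 (limma adjusted p = 0.359). Of 8 type 1 dendritic cell genes 0 passed (median 0.04; 1 at an unadjusted p under 0.05) and 7 had positive differences. Irf8 had the largest of these, 0.17 (limma adjusted p = 0.208). Of 8 type 2 genes 2 were lower, Cd209a and Clec4a4 (median -0.28; 5 at an unadjusted p under 0.05). With the number-set block 4 were lower, the others being Itgam (difference -0.31; limma adjusted p = 0.0222) and Cd4 (difference -0.44; limma adjusted p = 0.0170). Without the block 2 of the 8 type 2 genes had positive differences, Clec10a (0.27; limma adjusted p = 0.105) and Sirpa (0.06; limma adjusted p = 0.669). Clec10a, below the dim mark, is among the 5 at an unadjusted p under 0.05. Of 6 plasmacytoid dendritic cell genes 0 passed (median 0.10; 1 at an unadjusted p under 0.05) and 3 had positive differences. Klk1 had the largest, 0.80 (limma adjusted p = 0.354). It measured 8.53 and 8.48 on exposed arrays 1 and 2, 6.59 to 7.52 on the other exposed arrays and 6.39 to 7.49 on the naive arrays. Of 9 neutrophil genes 0 passed (median 0.10; 1 at an unadjusted p under 0.05), 5 had positive differences and 1 had a mean above the dim mark. Ly6g, below that mark, had the largest, 0.21 (limma adjusted p = 0.377). Of 7 B cell genes 1 was lower, Cd22, at -0.54 (median 0.06; 3 at an unadjusted p under 0.05). Of the 7, 4 had positive differences and did not pass. They were Cd79a (0.36; limma adjusted p = 0.452), Cd79b (0.29; limma adjusted p = 0.115), Pax5 (0.23; limma adjusted p = 0.344) and Ebf1 (0.06; limma adjusted p = 0.913). Ms4a1 (-0.21) and Fcrla (-0.16) had negative differences and did not pass either. Array medians lay between 5.53 and 5.61, and any 2 arrays correlated at 0.989 or more over all probesets.

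The rest of the family is given beside the 9 genes, which were picked with the same contrast in view. Of 13 such genes, the 11 other measured MS4A genes and their distant relatives Tmem176a and Tmem176b, limma called 0 in either direction (3 at an unadjusted p under 0.05, and 0 in all 24 alternative settings), against 1.42% of all genes. Their median difference was 0.02. Ms4a14 had the largest, at 0.40 ± 0.17 (SE; limma adjusted p = 0.366). It measured 6.81 on exposed array 1 and 5.69 to 6.08 on the other exposed arrays, against 5.44 to 5.85 on the naive arrays. Ms4a1, the CD20 gene of B cells, had a naive level of 8.17 ± 0.16 (SD, n = 6) and an exposed level of 7.95 ± 0.27 (SD, n = 5). It differed by -0.21 (limma adjusted p = 0.506). Whether the lymphoma cells express Ms4a1 was not tested. Ms4a3, a gene of myeloid progenitors, differed by -0.17 (limma adjusted p = 0.318) and Ms4a2 by -0.07 while below the dim mark.

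Tmem176a and Tmem176b, cation channel relatives that dendritic cells express at high levels, measured 11.24 and 11.99 in naive and 11.38 and 12.03 in exposed cells, differences of 0.14 (limma adjusted p = 0.210) and 0.05 (limma adjusted p = 0.797). The other genes were Ms4a5, Ms4a10, Ms4a13, Ms4a15, Ms4a18, Ms4a19 and Ms4a20, with differences from -0.08 in Ms4a10 to 0.09 in Ms4a18. Ms4a12 was not analysed here.

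Along the chromosome the differences were uneven between neighbours. Ms4a6d at 1.52 lay between Ms4a4d at 0.03 and Ms4a2 at -0.07, and Ms4a4a at 0.95 lay between Ms4a7 at 0.41 and Ms4a4c at 0.12. The gene Gm8369 within the stretch differed by 0.04. The 9 measured genes among the 5 on each side of the cluster differed by -0.11 to 0.11.

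**Figure D3:**
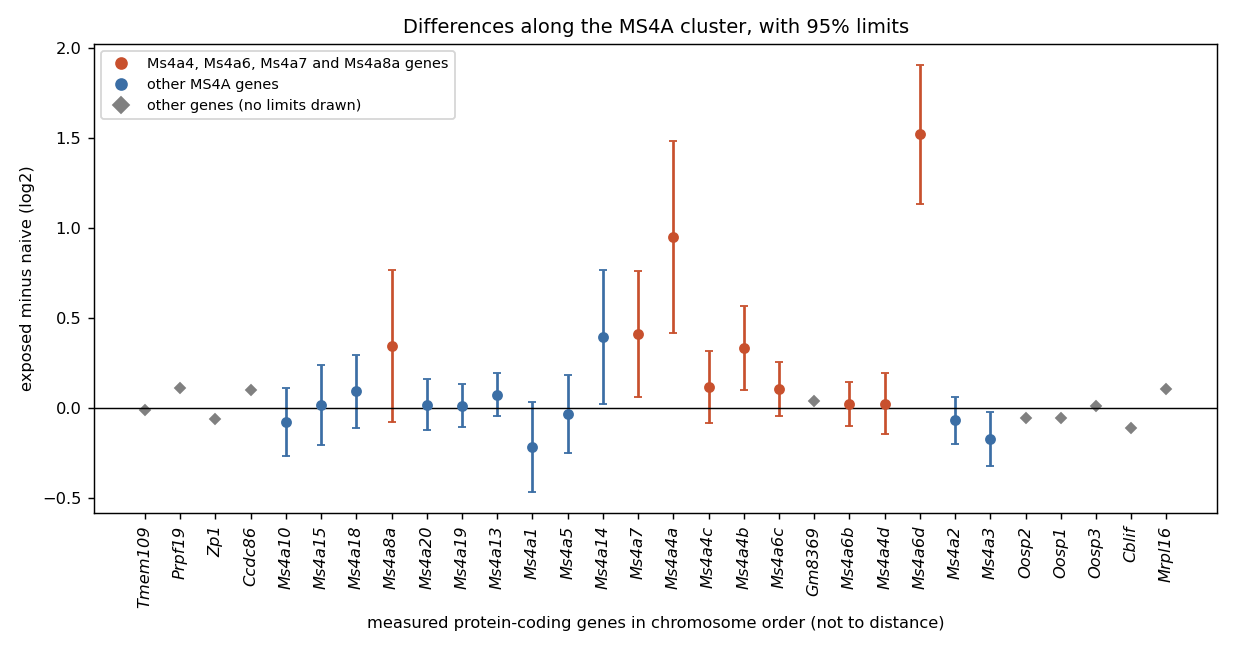
Difference between exposed and naive arrays in log2 units (vertical axis) for measured protein-coding genes in chromosome order (horizontal axis, not to distance); red points are the 9 genes described, blue points the other MS4A genes, both with 95% limits of the limma fit, and grey diamonds other genes. Ms4a6d at 1.52 and Ms4a4a at 0.95 stand above neighbours that differ by 0.41 or less.

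Genes known to act with MS4A proteins were read from the same fit. Only Vsig4 among them is described here as a partner of Ms4a6d itself. Of 7 such genes limma called 0 as higher and 1 as lower, Clec7a, which encodes Dectin-1. It measured 11.69, 11.85, 11.67, 11.47, 11.58 and 11.53 on the naive arrays and 11.47, 10.85, 11.38, 10.93 and 10.88 on the exposed arrays, so that 4 of 5 exposed arrays lay below all naive arrays. The difference was -0.53 ± 0.11 (SE; limma adjusted p = 0.0374). Leaving out single arrays kept the call in 2 of 11 fits, those without exposed array 1 or exposed array 3. Limma gave an adjusted p of 0.111 without exposed array 2, while the difference stayed between -0.62 and -0.47.

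The other 6 partners did not pass. Vsig4, a complement receptor reported to pair with Ms4a6d in macrophages, was below the dim mark in both groups, at 3.70 and 3.55. Trem2, a lipid-sensing receptor of macrophages, was at 5.89 and 5.86, and its adaptor Tyrobp at 11.16 and 11.07. Tnfrsf18, which encodes GITR, was at 7.93 and 7.91. Of the IgE receptor genes, the gamma chain gene Fcer1g was at 12.47 and 12.55, and the alpha chain gene Fcer1a was below the mark at 2.96 and 2.90.

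The observed differences are also given by the numbers of the arrays, without a claim that they truly differ between the sets. Arrays numbered 1 to 3 and arrays numbered 4 to 6 were treated as separate sets (3 naive and 3 exposed, 3 naive and 2 exposed), for which the labels give no reason. In their deviations from group means over all genes, naive and exposed arrays correlated at 0.127 on average within a set. Across the sets the average was -0.127. Ms4a6d was 1.82 higher in exposed cells among arrays 1 to 3 and 1.10 higher among arrays 4 to 6, and 1.50 higher with the number set as a block. Ms4a4a gave 1.13, 0.59 and 0.89 in the same order. Ms4a7 gave 0.61 and 0.14 within the sets, and Ms4a8a gave 0.52 and 0.06. Ms4a4b had the opposite order, with 0.25 and 0.41. Exposed arrays 1 and 2, with the high macrophage marker level, both belong to the first set.

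A limma interaction between group and number set over all genes called 0 of 22180 (0%), with 943 at an unadjusted p under 0.05. For Ms4a6d the difference was smaller by 0.72 in the second set (unadjusted p = 0.0384; limma adjusted p = 0.992). The other 8 genes had unadjusted p-values from 0.167 to 0.837. A change in effect between the sets was therefore not detectable with these arrays.

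**Figure D4:**
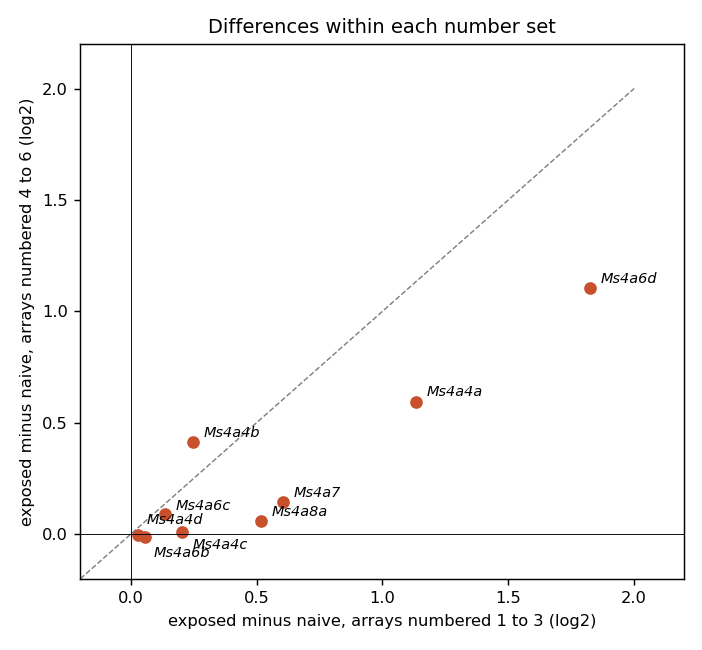
Difference between exposed and naive arrays in log2 units within arrays numbered 1 to 3 (horizontal axis) and within arrays numbered 4 to 6 (vertical axis), 1 point per gene; the dashed line marks equal differences. Ms4a6d (1.82 and 1.10) and Ms4a4a (1.13 and 0.59) lie below the line, and Ms4a4b (0.25 and 0.41) lies above it.

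Outside the family, 6 genes had the pattern over the 11 arrays most like that of Ms4a6d. Likeness was the mean absolute difference between 2 genes' profiles after each gene's own mean was removed, for which the median over 22179 genes was 0.75. The carbonic anhydrase gene Car13 came closest at 0.19, then the stress-response gene Nupr1 at 0.20, the oxysterol receptor gene Nr1h3 at 0.23, the VEGF receptor gene Kdr and the formyl peptide receptor gene Fpr2, both at 0.25, and Il6 at 0.28. All 6 had their exposed arrays above all naive arrays, which likeness to Ms4a6d nearly fixes. Among the 9 genes Ms4a4a was nearest, at 0.34, followed by Ms4a7 at 0.55 and Ms4a8a at 0.58. Ms4a6b and Ms4a4d, both at 0.74, were the farthest among the 9 genes.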

How the data were processed

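Per the labels, total RNA was labelled with biotin and hybridised to a 1-colour Affymetrix gene array, 1 array per sample. The deposited values are log2 expression per probeset, made by the authors with RMA per the submitters' processing notes; its version and genome build are not given in the sources used here. RMA normalises between arrays, so a shift shared by most genes would be removed. Of 41801 probesets 34472 held values. The platform's probe table names 1 gene for 23521 of them, several for 1814 and none for 9137. The probeset with the highest mean over the 11 arrays stood for each of 22180 genes.

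Differences are exposed minus naive, fitted with limma 3.58.1 (lmFit, eBayes with trend) in R 4.3.3 over all genes, with Benjamini-Hochberg adjustment and a threshold of 0.05. SE is limma's. The code was tested on simulated data. No dim gene was removed. For arrays, their number limits the precision. Alternatives were other limma settings, rescaling, a filter on dim genes, other probeset rules, blocks and leaving out each array.

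The 9 genes, the gene lists and the tests were chosen with earlier results of these data known. Named genes are the 9, the other MS4A genes, the partners, list genes that passed in the fit of all arrays or had the largest difference, up to 3 a list, and the 6 most like Ms4a6d. Itgax and H2-Ab1 are named as checks of the sort, and Itgam and Cd4 for the number-set block. Spic, Adgre1, Csf1r, Cd79a, Cd79b, Pax5, Ebf1, Fcrla, Clec10a and Sirpa are named outside this rule, after their values were seen. Some listed marker genes were not analysed here, and the report gives the number measured for each list. The last exposed array is numbered 6 in its title and 5 in another field.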

Additional observations from a re-analysis of the deposited data

Results flagged for a closer look

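The genes screened for outlying arrays were the 9, the 13 relatives, the 7 partners and the 6 most like Ms4a6d. The other marker genes were not screened. Among these 35 genes in 2 groups each, 70 groups in all, 3 held an array that stood far from the rest of its group by Dixon's criterion. Chance alone meets it in about 1 in 20 groups. Ms4a15 was 6.28 on naive array 2, with the next naive array at 5.83, and 6.02 on exposed array 3, with the next exposed array at 5.82. Fpr2 was 4.90 on naive array 3, with the next lowest naive array at 5.53. None of the 9 genes met the criterion in either group.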

How the results depend on the processing

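The difference of Ms4a6d stayed positive in all 24 alternative settings and passed in 22, between 1.41 and 1.65 with 1 array left out; it missed in each number set alone. Of the 9 genes, 2 were called (Ms4a6d and Ms4a4a) with the title's number as a replicate block and with a block for the number set, 1 to 2 with 1 array left out, and 0 in arrays numbered 1 to 3 or 4 to 6 alone. Over all genes the count of 316 became 182 with the characteristic's number as a replicate block, 617 with a block for the number set, 11 and 5 in the number sets alone, and 104 (without exposed array 2) to 395 with 1 array left out. It fell to 155, 155, 165, 170 and 177 without naive arrays 5, 6, 1, 3 and 2 and to 205 without exposed array 3. A shift to a common 75th percentile left 43.0% of calls higher, against 61.7%. Same-numbered arrays correlated at 0.0880 to 0.231 in their deviations from group means, and 2 of 5 exposed arrays correlated best with their own number, so the numbers were not taken to pair arrays. The filter on dim genes tested 12619 genes and left out Ms4a4b, Ms4a4d and Ms4a8a. The differences near 0 of Ms4a6b and Ms4a4d changed sign in 3 of 24 and 4 of 23 settings. The cause of these shifts was not tested.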

Other observations

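Interferon-stimulated genes, the antiviral transcripts that dendritic cells raise on interferon, did not pass in limma: 0 of 10 were called, with 1 at an unadjusted p under 0.05. Of the 10, 8 had positive differences and the median was 0.12. The largest was that of the antiviral gene Rsad2, 0.49 ± 0.14 (SE; limma adjusted p = 0.109), and 4 of 5 exposed values exceeded the naive range. The list's mean level was 8.80 and 8.87 on exposed arrays 1 and 2 and 8.23 to 8.44 on the other exposed arrays, against 8.26 to 8.56 on the naive arrays.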
